A study of Homo sapiens with 24 samples.

Results

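The 9 genes described here are NFE2L2, KEAP1, HMOX1, GCLM, GCLC, SRXN1, TXNRD1, OSGIN1 and FTL, which encode the transcription factor NRF2, its inhibitor and 7 genes known as NRF2 targets or antioxidant genes. They were chosen by name and matched by symbol to the counted genes, and all 9 were found among 58381 genes in the table and among the 20820 that passed a filter on low counts. Messenger RNA had been sequenced from 4 bladder cancer cell lines, each after mitomycin C (MMC) and untreated. MMC is a drug that crosslinks DNA and is used against bladder cancer. The tested groups were T24, 5637, TCC-SUP and CLS-439 cells given 75 µM MMC for 1 h, with RNA taken 15 h after treatment, and each was set against untreated cells of the same line. Every group has 3 libraries numbered 1, 3 and 4, called biological replicates in the series' design. No allele, transgene or other agent is given for any group, each line stands for 1 tumour-derived culture, and the treatment tag spelled MCC was read as MMC because the protocol names that drug alone.

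NRF2, the product of NFE2L2, is a transcription factor that binds antioxidant response elements together with a small MAF protein. In unstressed cells KEAP1 holds NRF2 and presents it to the CUL3 ubiquitin ligase for destruction, and electrophiles or oxidants that modify KEAP1 let NRF2 accumulate. Its activity is therefore set largely by protein stability, which messenger RNA does not measure. Among its targets, GCLC and GCLM are the catalytic and modifier subunits of the enzyme that makes the first step of glutathione synthesis. TXNRD1 is the cytosolic thioredoxin reductase, SRXN1 repairs overoxidised peroxiredoxins, HMOX1 breaks down heme, FTL is the light chain of the iron store ferritin, and OSGIN1 is an oxidative stress induced growth inhibitor.

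Library totals ranged from 13791428 to 28821665 counted reads. The 6 CLS-439 libraries stood apart from the other 18. Mitochondrial genes took 0.0238 to 0.0283% of their reads, against 3.21 to 7.40% in the other lines, and processed pseudogenes took 2.97 to 3.25%, against 0.179 to 0.272%. The part of this in results that include CLS-439 was not tested. Of 12 epithelial and urothelial markers, 7 to 11 reached 1 CPM (count per 1000000 reads after scaling) in a group, and UPK2 did so in none. TCC-SUP also carried all 8 fibroblast markers at 1 CPM or more. Treated library 1 stood farther from treated libraries 3 and 4 than these did from each other in T24, 5637 and CLS-439. In T24 the root mean square differences were 0.74 and 0.56 on the log2 scale, against 0.29.

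The promoters below are shown because they hold letters that match the core of the element through which NRF2 acts, or the related AP-1 element. The RefSeq promoter table (build GRCh38.p14) matched 8 of the 9 genes with 11 promoters. It held none for HMOX1, so the HMOX1 promoter was not searched. The core letters TGACNNNGC of the antioxidant response element, searched on both strands in the 250 bases upstream of each start, occurred in promoters of 3 genes, GCLM, TXNRD1 and KEAP1, and in 10.9% of all 35116 promoters of that table. The AP-1 letters TGANTCA, also searched on both strands, occurred in OSGIN1 alone among these genes and in 6.57% of all promoters. The member figures count genes, some with several promoters, while the percentages count promoters, so they are not like measures. The 2 sets of letters can overlap, and no stretch shown here matched both. Capitals mark the matches, and each sequence runs 5′ to 3′ on the strand of its gene.
GCLM, chr1:93909431-93909494, minus strand: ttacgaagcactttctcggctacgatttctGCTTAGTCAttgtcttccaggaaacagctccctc
TXNRD1, chr12:104215650-104215718, plus strand: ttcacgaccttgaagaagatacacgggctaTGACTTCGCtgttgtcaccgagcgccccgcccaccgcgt
TXNRD1, chr12:104286900-104286968, plus strand: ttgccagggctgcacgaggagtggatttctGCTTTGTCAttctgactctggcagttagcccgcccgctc
OSGIN1, chr16:83953113-83953179, plus strand: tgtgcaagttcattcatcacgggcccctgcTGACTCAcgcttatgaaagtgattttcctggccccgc
KEAP1, chr19:10502772-10502855, minus strand: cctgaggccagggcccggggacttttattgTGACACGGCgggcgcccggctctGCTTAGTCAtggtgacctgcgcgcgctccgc
The GCLM match lies 26 bases before its start. The TXNRD1 matches lie before separate starts, 91 and 94 bases upstream, the OSGIN1 match lies 91 bases upstream, and the KEAP1 matches lie 23 and 46 bases upstream of the same start. A match describes these letters only and does not show that a factor binds there.

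With MMC, NFE2L2, GCLC and OSGIN1 rose in T24, KEAP1, HMOX1, OSGIN1 and FTL rose in 5637, HMOX1 and TXNRD1 fell in TCC-SUP, and no member passed the test in CLS-439. The response itself differed among the lines for 3 of the 9 genes, HMOX1, TXNRD1 and OSGIN1, where 16% of all genes tested did. Calls rest on edgeR's quasi-likelihood test with Benjamini-Hochberg adjustment over all 20820 genes at an adjusted p under 0.05. They do not pair libraries. In 5637, where numbers were taken as pairs, a replicate block in that test also calls TXNRD1 (adjusted p = 0.00908) and does not call FTL (0.062). In T24, 3 of 9 rose, where 15.2% of all genes tested rose and 28.6% changed. The count in 5637 was 4 of 9 higher, where 15.9% of all genes rose and 29.4% changed. TCC-SUP had 2 of 9 lower, where 11.1% of all genes fell and 20.7% changed. CLS-439 had 0 of 9 called by edgeR and 0 by DESeq2, with 1 (TXNRD1) at an unadjusted p under 0.05, where 0.62% of all genes were called. The median log2 fold change of the 9 genes was 0.29 (T24), 0.38 (5637), 0.00 (TCC-SUP) and 0.11 (CLS-439), and that of all genes tested was 0 in each line. Libraries of MMC and untreated cells did not overlap for 3 members (T24), 5 (5637), 4 (TCC-SUP) and 1 (CLS-439), and among all genes tested for 34.6% (T24), 40.5% (5637), 37.7% (TCC-SUP) and 21.9% (CLS-439). RNA came from whole cultures, so fewer cells of a kind and less RNA per cell cannot be told apart. In T24 the count of members rests on single libraries: it is 1 without untreated library 1 and 4 without treated library 1.

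**Figure D1:**
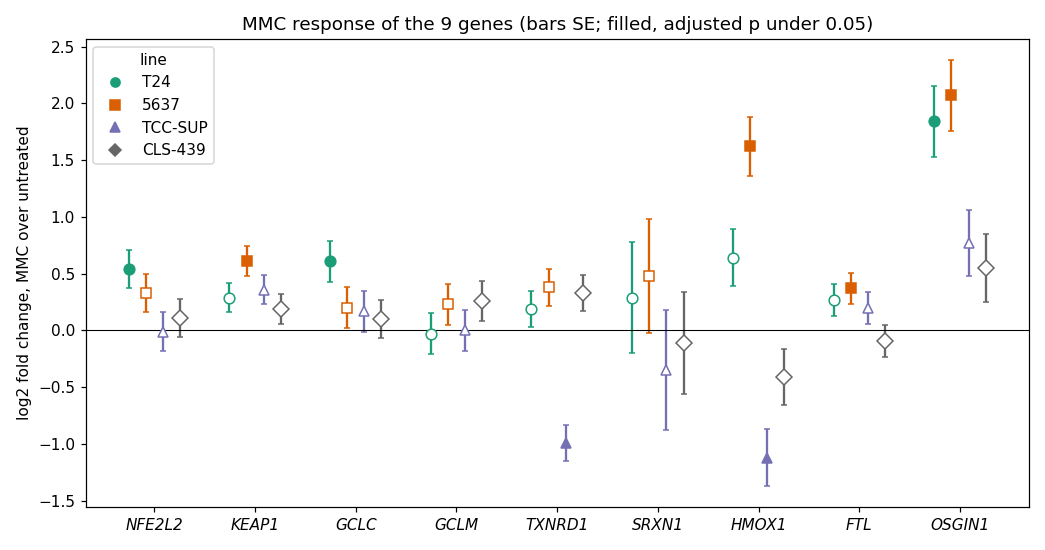
The MMC response of the 9 genes in each line, as the log2 fold change of MMC over untreated on the y axis with its SE as a bar, and filled symbols where the adjusted p is under 0.05. OSGIN1 stands highest in T24 and 5637, and HMOX1 and TXNRD1 are the members called below 0, both in TCC-SUP.

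HMOX1, the inducible heme oxygenase (ENSG00000100292, GRCh38 chromosome 22, 35380361 to 35394214, plus strand), moved in opposite directions in 5637 and TCC-SUP. In 5637 it stood at 28.5, 28.5 and 30.3 CPM in MMC libraries 1, 3 and 4, against 9.45, 9.51 and 9.38 CPM in untreated libraries. In TCC-SUP it stood at 74.1, 79.3 and 65.0 CPM in MMC libraries, against 169, 134 and 173 CPM in untreated libraries. The groups are far apart in both lines, with every MMC library above every untreated one in 5637 and below it in TCC-SUP. The log2 fold change was 1.62 (SE 0.26, adjusted p = 5.79e-05) in 5637, a 3.08-fold higher level with MMC, and -1.12 (SE 0.25, adjusted p = 0.00253) in TCC-SUP. In TCC-SUP the call is lost when library 4 of every group is left out (adjusted p = 0.137).

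In T24, HMOX1 had 59.3, 52.1 and 91.5 CPM with MMC, against 43.9, 42.5 and 43.7 CPM untreated. The T24 groups do not overlap, and MMC library 4 is the highest. The log2 fold change of 0.64 (SE 0.25) had an adjusted p of 0.0574, so it was not called. It is called with DESeq2 (adjusted p = 0.0452), with DESeq2 size factors in edgeR (0.0496) and with no filter on low counts (0.0042). It is also called without the CLS-439 libraries (0.01), without MMC library 1 (0.0466) and without MMC library 3 (0.0308). Over all fits with libraries left out, the log2 fold change ran from 0.328 to 0.797 and the adjusted p from 0.0286 to 0.631. In CLS-439 the values were 51.5, 105 and 75.5 CPM with MMC, against 60.1, 152 and 96.1 CPM untreated. Library 3 is the highest and library 1 the lowest of both CLS-439 groups, which overlap (log2 fold change -0.41, SE 0.25, adjusted p = 0.789). For each number the MMC library is the lower one of its CLS-439 pair. With these pairs as a replicate block HMOX1 was not called in CLS-439 either.

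The HMOX1 response differed among the lines (F test on the differences, adjusted p = 6.99e-05). The T24 response exceeded that of TCC-SUP by 1.76 on the log2 scale (SE 0.35, adjusted p = 0.00446). The 5637 response exceeded that of TCC-SUP by 2.75 (SE 0.36, adjusted p = 8.93e-05) and that of CLS-439 by 2.03 (SE 0.36, adjusted p = 0.000853). Between the other pairs of lines the differences were not called, with adjusted p of 0.0584 for T24 minus CLS-439, 0.144 for T24 minus 5637 and 0.301 for TCC-SUP minus CLS-439. Over all genes, 3.79% were called for T24 minus TCC-SUP, 2.7% for 5637 minus TCC-SUP and 9.02% for 5637 minus CLS-439. The 6 differences share libraries and are not independent. The F test keeps its call without the CLS-439 libraries, and without library 4 of every group its adjusted p is 0.0866.

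TXNRD1 (ENSG00000198431, GRCh38 chromosome 12, 104215779 to 104350305, plus strand) fell in TCC-SUP, which has the highest untreated level. It stood at 905, 607 and 854 CPM in TCC-SUP MMC libraries 1, 3 and 4, against 1618, 1323 and 1760 CPM in untreated libraries. Every MMC library was below every untreated one, and the log2 fold change was -0.99 (SE 0.16, adjusted p = 0.000159). With MMC the TCC-SUP mean of 788 ± 159 CPM lay beside the T24 mean of 774 ± 131 CPM (SD, n = 3 each).

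In 5637, TXNRD1 had 388, 394 and 430 CPM with MMC, against 280, 343 and 309 CPM untreated, and in CLS-439 it had 373, 433 and 410 CPM with MMC, against 324, 314 and 331 CPM untreated. Neither pair of groups overlaps, and MMC is the higher one in both. The log2 fold changes of 0.38 in 5637 (SE 0.16, adjusted p = 0.0742) and 0.33 in CLS-439 (SE 0.16, adjusted p = 0.636) were not called. With the paired libraries of 5637 as a replicate block the 5637 rise is called at an adjusted p of 0.00908. With libraries left out, the adjusted p of the 5637 rise ran from 0.1 to 0.376. With CLS-439 fitted alone the rise there has an adjusted p of 0.0378. In fits of all lines with libraries left out, the lowest adjusted p of the CLS-439 rise was 0.408. In T24 the libraries ran from 639 to 901 CPM with MMC and from 553 to 845 CPM untreated and overlap (log2 fold change 0.19, SE 0.16, adjusted p = 0.415).

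The TXNRD1 response also differed among the lines (adjusted p = 0.000337). TCC-SUP was the line set apart. Its response lay below that of T24 by 1.18 on the log2 scale (T24 minus TCC-SUP, SE 0.22, adjusted p = 0.00261) and below that of 5637 by 1.37 (5637 minus TCC-SUP, SE 0.22, adjusted p = 0.000854). Against CLS-439 the difference was -1.32 (TCC-SUP minus CLS-439, SE 0.22, adjusted p = 0.00396), where 2.65% of all genes were called. Without library 4 of every group the F test has an adjusted p of 0.0894.

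Values of cell type markers and of RNA stand beside these results, and their part in them was not tested. Of the 12 epithelial and urothelial markers 11 passed the filter and were tested, and of the 5 leukocyte markers 2 were. Among all genes tested, 13.4% (T24), 13.6% (5637) and 11.1% (TCC-SUP) were called lower. Called higher were 15.2% (T24), 15.9% (5637) and 9.57% (TCC-SUP). In TCC-SUP, beside the falls of HMOX1 and TXNRD1, mitochondrial genes took 5.32, 7.40 and 6.41% of reads in MMC libraries, against 5.10, 4.91 and 4.33% in untreated libraries, so every MMC library lay above every untreated one. All 8 fibroblast markers reached 1 CPM in both TCC-SUP groups, and their summed level ran from 4652 to 6808 CPM with MMC, against 8556 to 12080 CPM untreated. COL1A1 and COL1A2 were called lower and the other 6 were not called. The sum of 12 epithelial and urothelial markers, of which 4 were called lower, ran from 1171 to 2269 CPM with MMC, against 2110 to 2835 CPM untreated, and these ranges overlap. Of 5 leukocyte markers, PTPRC and CD14 reached 1 CPM, PTPRC was called lower, the sum ran from 17.4 to 24.6 CPM with MMC, against 34.7 to 41.8 CPM untreated, and CD3E was at 0 in all untreated libraries. Of 4 endothelial markers none reached 1 CPM and none was called by edgeR, with 0 at an unadjusted p under 0.05, and the overlapping sums were 0.971 to 1.39 CPM with MMC, against 1.21 to 2.52 CPM untreated.

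In 5637, beside the rises of HMOX1, OSGIN1, KEAP1 and FTL, the epithelial and urothelial sum ran from 4132 to 6040 CPM with MMC, against 6552 to 7654 CPM untreated, with 5 of 12 markers called lower. The fibroblast sum ran from 99.0 to 121 CPM with MMC, against 50.6 to 64.4 CPM untreated, with 2 of 8 called higher, and the leukocyte sum from 0.702 to 1.79 CPM with MMC, against 0.241 to 0.368 CPM untreated, with CD14 called higher. In T24, where NFE2L2, GCLC and OSGIN1 rose, 3 of 12 epithelial and urothelial markers were called lower with overlapping sums (3223 to 6965 CPM with MMC, against 5416 to 6984 CPM untreated). T24 fibroblast sums were low, 4 to 8.28 CPM with MMC, against 2.6 to 3.68 CPM untreated, with COL1A1 called higher. In CLS-439 the epithelial and urothelial sum ran from 1788 to 2329 CPM with MMC, against 2609 to 2936 CPM untreated, and the fibroblast sum from 985 to 1227 CPM with MMC, against 1529 to 1868 CPM untreated. No marker of these 2 lists was called there by edgeR, with 2 and 1 at an unadjusted p under 0.05.

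OSGIN1 (ENSG00000140961, GRCh38 chromosome 16, 83948282 to 83966332, plus strand) had the largest rise of the 9 genes in T24 and in 5637. In T24 it stood at 16.7, 29.3 and 30.6 CPM in MMC libraries 1, 3 and 4, against 6.51, 6.40 and 8.41 CPM in untreated libraries. In 5637 it stood at 14.0, 36.9 and 27.5 CPM in MMC libraries, against 6.10, 6.86 and 5.75 CPM in untreated libraries. MMC library 1 is the lowest treated one in both lines, and still above every untreated library. The log2 fold change was 1.84 (SE 0.31, adjusted p = 7.33e-05) in T24 and 2.07 (SE 0.31, adjusted p = 2.05e-05) in 5637, which are 3.59-fold and 4.19-fold higher levels.

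In TCC-SUP, OSGIN1 had 18.9, 36.6 and 23.7 CPM with MMC, against 16.7, 12.3 and 17.6 CPM untreated. All 3 MMC libraries were above the untreated ones, with library 1 nearest to them, and the log2 fold change of 0.77 (SE 0.29) had an adjusted p of 0.0665. It is called with no filter (adjusted p = 0.00604), with TCC-SUP fitted alone (0.0396), without MMC library 1 (0.0282) and without library 1 of every group (0.0012). Over all fits with libraries left out, the log2 fold change ran from 0.308 to 0.998 and the adjusted p from 0.0012 to 0.67. In CLS-439 the values were 12.1, 21.8 and 21.9 CPM with MMC, against 11.2, 13.7 and 13.3 CPM untreated, and MMC library 1 lies within the untreated range (log2 fold change 0.55, SE 0.30, adjusted p = 0.73).

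The OSGIN1 response differed among the lines at an adjusted p of 0.0226. Between pairs only 5637 minus CLS-439 was called, at 1.52 on the log2 scale (SE 0.43, adjusted p = 0.0246). T24 minus CLS-439 came to 1.29 (SE 0.42, adjusted p = 0.0511), where 10.1% of all genes were called. Between T24 and 5637, where 3.47% of all genes differed in response, none of the 9 was called by edgeR, with 1 (HMOX1) at an unadjusted p under 0.05. The F test has an adjusted p of 0.134 without the CLS-439 libraries, 0.123 without library 3 of every group and 0.511 without library 4. A protein-coding gene of the same strand, AC009119.2, shares 13.9% of the OSGIN1 exon bases and held 36 reads in all, against 8947 for OSGIN1.

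The deviations of treated libraries of the same number correlated in T24, 5637 and TCC-SUP (0.18 to 0.71 over the 9 pairs), and the tests above do not use this. With the number of these treated libraries as a replicate block, an alternative chosen after seeing the data, the responses of HMOX1, TXNRD1 and OSGIN1 remained those called different among the lines, with adjusted p of 0.000113, 1.94e-05 and 0.000256. Also called with that block were OSGIN1 in TCC-SUP (adjusted p = 0.00508), TXNRD1 in 5637 (0.0394), KEAP1 in TCC-SUP (0.0271), and the OSGIN1 differences T24 minus TCC-SUP (0.0115), T24 minus CLS-439 (0.00203) and 5637 minus TCC-SUP (0.00497). No member lost a call under it.

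**Figure D2:**
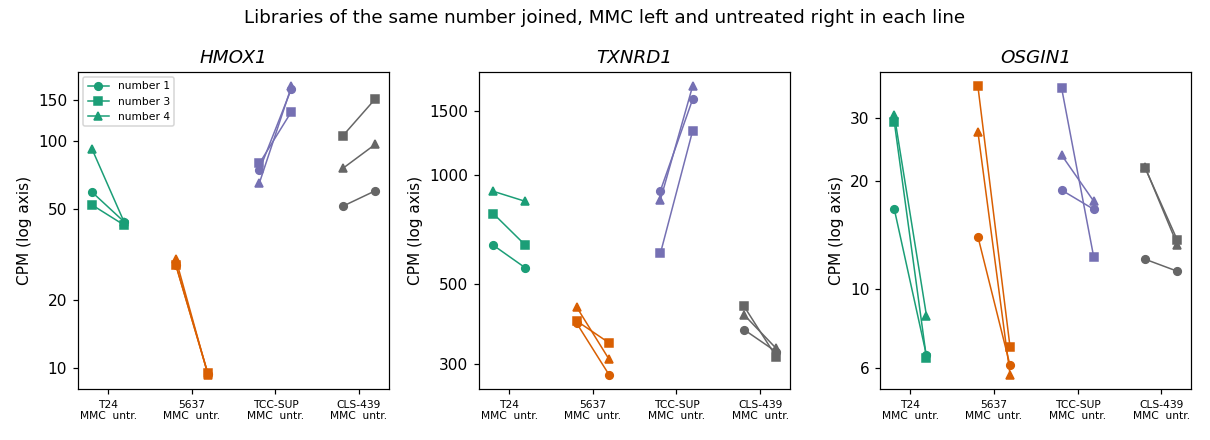
HMOX1, TXNRD1 and OSGIN1 in CPM (log axis) by line, with MMC left and untreated right. A line joins MMC and untreated libraries of the same number. These were taken as pairs in 5637 and CLS-439, but not in T24 or TCC-SUP. HMOX1 lies higher with MMC in 5637 (28.5 to 30.3 CPM) and lower with MMC in TCC-SUP (65.0 to 79.3 CPM) for every number.

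Each of the 2 regulators was called in 1 line. NFE2L2 (ENSG00000116044, GRCh38 chromosome 2, 177227595 to 177392697, minus strand) had 81.3, 151 and 116 CPM in T24 MMC libraries 1, 3 and 4, against 71.3, 76.9 and 91.9 CPM in untreated libraries. MMC libraries 3 and 4 were above all untreated ones, and library 1 was within their range. The log2 fold change was 0.54 (SE 0.17, adjusted p = 0.0204), a 1.45-fold higher level with MMC. The call is lost without any 1 of 4 libraries, with adjusted p of 0.206 without MMC library 3, 0.0501 without MMC library 4, 0.106 without untreated library 1 and 0.076 without untreated library 3. When T24 is fitted alone the adjusted p is 0.149. A gene of the same strand, AC019080.1, shares 17.6% of the NFE2L2 exon bases and held 530 reads in all, against 56423 for NFE2L2.

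In the other lines NFE2L2 was not called. The means were 149 ± 26.4 CPM with MMC and 119 ± 4.68 CPM untreated in 5637, 90.3 ± 13.1 CPM with MMC and 91.0 ± 4.18 CPM untreated in TCC-SUP, and 123 ± 8.80 CPM with MMC and 114 ± 14.1 CPM untreated in CLS-439 (SD, n = 3 each). The groups overlap in all 3 lines, and the log2 fold changes were 0.33, -0.01 and 0.11 in that order (SE 0.17 each).

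KEAP1 (ENSG00000079999, GRCh38 chromosome 19, 10486120 to 10503741, minus strand), the adaptor that marks NRF2 for degradation, rose in 5637. It stood at 132, 146 and 121 CPM in 5637 MMC libraries, against 88.0, 89.7 and 83.5 CPM in untreated libraries, which do not overlap (log2 fold change 0.61, SE 0.13, adjusted p = 0.000945). In TCC-SUP it had 107, 109 and 98.8 CPM with MMC, against 80.6, 77.3 and 87.7 CPM untreated. These groups do not overlap either, and the log2 fold change of 0.36 (SE 0.13) had an adjusted p of 0.0544, against 0.0337 with DESeq2. With libraries left out the adjusted p ran from 0.0609 to 0.351. In T24 the range was 96.3 to 139 CPM with MMC and 86.3 to 103 CPM untreated (log2 fold change 0.29, SE 0.13, adjusted p = 0.0968). Without MMC library 3 the T24 adjusted p is 0.0203, and over all fits with libraries left out it ran from 0.0203 to 0.646. In CLS-439 the range was 82.0 to 109 CPM with MMC and 80.4 to 87.2 CPM untreated (log2 fold change 0.19, SE 0.13, adjusted p = 0.853). The differences of response among the lines were not called for NFE2L2 or KEAP1.

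The subunits of glutamate-cysteine ligase did not pass the test together in any line. GCLC, the catalytic subunit (ENSG00000001084, GRCh38 chromosome 6, 53497341 to 53616970, minus strand), rose in T24. It stood at 22.2, 41.3 and 33.8 CPM in T24 MMC libraries 1, 3 and 4, against 19.0, 21.3 and 23.3 CPM in untreated libraries. As for NFE2L2, MMC libraries 3 and 4 were above the untreated range and library 1 was inside it. The log2 fold change was 0.61 (SE 0.18, adjusted p = 0.0117). The adjusted p is 0.111 without MMC library 3, 0.0663 without untreated library 1 and 0.117 when T24 is fitted alone. In 5637, TCC-SUP and CLS-439 the log2 fold changes of GCLC were 0.20, 0.17 and 0.10, none was called, and the groups overlap.

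GCLM, the modifier subunit (ENSG00000023909, GRCh38 chromosome 1, 93885205 to 93909456, minus strand), was called in no line. It averaged 74.5 ± 18.1 CPM with MMC and 75.8 ± 9.06 CPM untreated in T24, and 50.9 ± 6.80 CPM with MMC and 43.3 ± 6.71 CPM untreated in 5637. The means were 65.9 ± 11.4 CPM with MMC and 65.8 ± 4.50 CPM untreated in TCC-SUP, and 94.8 ± 6.91 CPM with MMC and 79.2 ± 17.2 CPM untreated in CLS-439 (SD, n = 3 each). All 4 pairs of groups overlap, and the log2 fold changes were -0.03, 0.23, 0.00 and 0.26 in that order (SE 0.18 each).

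FTL (ENSG00000087086, GRCh38 chromosome 19, 48965301 to 48966878, plus strand) had 884, 981 and 889 CPM in 5637 MMC libraries, against 781, 675 and 670 CPM in untreated libraries. The groups do not overlap, and the log2 fold change of 0.37 (SE 0.14) was called at an adjusted p of 0.0466, just inside the threshold. The adjusted p is 0.0657 when CLS-439 is left out and 0.062 with the 5637 pairs as a replicate block. It runs from 0.072 to 0.168 without any 1 of MMC libraries 1, 3 and 4 and untreated libraries 3 and 4. In T24, FTL had 1032, 976 and 1138 CPM with MMC, against 900, 844 and 870 CPM untreated, which do not overlap but were not called (log2 fold change 0.27, SE 0.14, adjusted p = 0.167). TCC-SUP and CLS-439 had log2 fold changes of 0.20 and -0.09, not called, with overlapping groups.

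FTL has near-identical pseudogenes, so its counts are uncertain. FTLP3 is 97.7% and FTLP2 93.9% identical to FTL over 528 bases. FTL pseudogenes held 14.6 to 16.3% of the summed level of FTL and its pseudogenes in CLS-439, against 0.256 to 0.575% in the other lines. With the pseudogene reads added to FTL, the call in 5637 (adjusted p = 0.0464) and the absence of a call in the other lines were the same.

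SRXN1, sulfiredoxin (ENSG00000271303, GRCh38 chromosome 20, 646615 to 653370, minus strand), was listed at 0.28 to 2.83 CPM, with 673 reads over all 24 libraries. Its log2 fold changes of 0.29 (T24), 0.48 (5637), -0.35 (TCC-SUP) and -0.11 (CLS-439) carry SE of 0.45 to 0.53, and none was called. Of its 2698 exon bases, 2292 are also exons of AL121758.1, a protein-coding gene on the same strand with 0 reads in the table. The labels do not say how reads in shared exons were counted, and the SRXN1 level is uncertain.

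**Figure D3:**
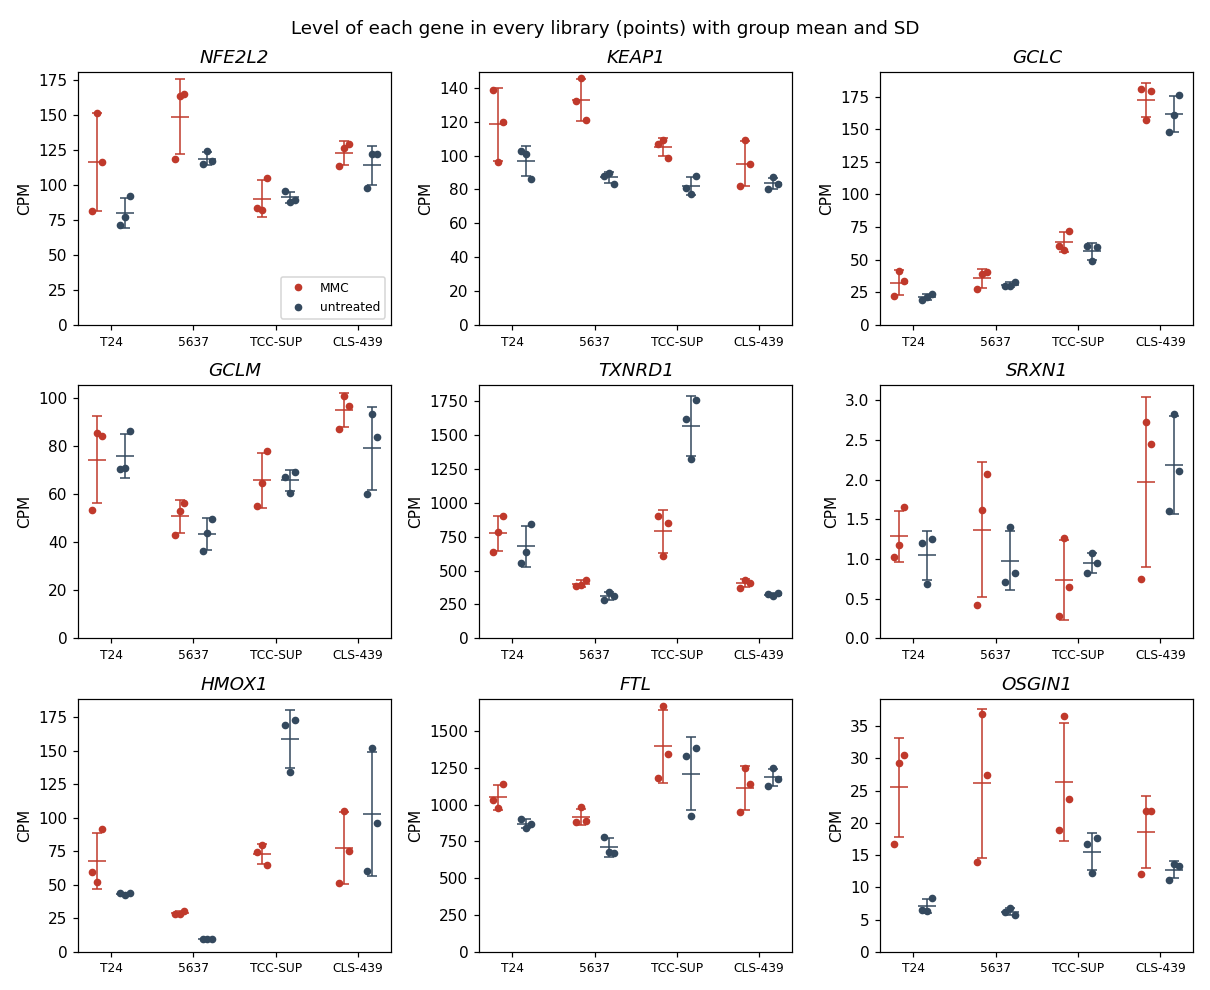
CPM of each gene in every library (points, y axis from 0) by line, MMC left of untreated, with the group mean and SD. HMOX1 in TCC-SUP has 3 MMC points at 65.0 to 79.3 CPM under 3 untreated points at 134 to 173 CPM, and KEAP1 has similar untreated levels in the 4 lines.

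Most of the 9 genes differed among the untreated lines. The untreated level differed among the 4 lines for 8 of 9 genes, where 93.3% of all genes tested did, and KEAP1 was the gene not called (adjusted p = 0.293). Per kilobase of exon, untreated FTL was the most abundant at 807 to 1379 CPM per kb over the line means. TXNRD1 had the next highest mean in each line, at 46.3 to 234 CPM per kb. HMOX1, at 3.93 to 65.9 CPM per kb, came after it in TCC-SUP and CLS-439, lay below KEAP1 in T24, and in 5637 lay below KEAP1, NFE2L2 and GCLM. KEAP1 stood at 21.8 to 25.7, NFE2L2 at 13.4 to 19.9, GCLM at 7.99 to 14.6, GCLC at 2.45 to 18.7 and OSGIN1 at 1.80 to 4.49 CPM per kb. SRXN1 had the lowest listed value in each line, at 0.351 to 0.808. That value divides by all 2698 exon bases, of which 2292 are shared with AL121758.1, so the rank of SRXN1 is uncertain.

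HMOX1 had the widest range among untreated lines. It averaged 159 ± 21.4 CPM in TCC-SUP, 103 ± 46.5 in CLS-439, 43.4 ± 0.753 in T24 and 9.45 ± 0.0685 CPM in 5637 (SD, n = 3 each), and all 6 pairs of lines were called, where 77% (TCC-SUP and CLS-439), 73.7% (5637 and CLS-439), 72.3% (T24 and CLS-439), 56.6% (5637 and TCC-SUP), 51.3% (T24 and TCC-SUP) and 46.6% (T24 and 5637) of all genes were called. The closest pair in that order, TCC-SUP over CLS-439, differed by 0.62 on the log2 scale (SE 0.25, adjusted p = 0.0252) with overlapping libraries. After MMC the order changed at the top, with means of 77.4 ± 27.0 CPM in CLS-439, 72.8 ± 7.24 in TCC-SUP, 67.6 ± 21.0 in T24 and 29.1 ± 1.07 CPM in 5637. The treated libraries of CLS-439, TCC-SUP and T24 overlap, and those of 5637 lie under all of them.

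GCLC was highest in CLS-439. It averaged 161 ± 13.8 CPM there, 56.4 ± 6.64 in TCC-SUP, 30.9 ± 1.82 in 5637 and 21.2 ± 2.17 CPM in T24, with all 6 pairs called. GCLM did not share this order: it was called lower in 5637 (43.3 CPM) than in each other line, and CLS-439, T24 and TCC-SUP did not differ from one another beyond the test (adjusted p of 0.184 to 0.778). TXNRD1 averaged 1567 ± 223 CPM in TCC-SUP, 679 ± 150 in T24, 323 ± 8.23 in CLS-439 and 311 ± 31.3 CPM in 5637, and CLS-439 and 5637 alone were not called apart (adjusted p = 0.766).

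OSGIN1 formed an upper pair, TCC-SUP at 15.5 ± 2.86 and CLS-439 at 12.7 ± 1.33 CPM, and a lower pair, T24 at 7.11 ± 1.13 and 5637 at 6.23 ± 0.568 CPM (SD, n = 3 each). Lines within a pair were not called apart (adjusted p = 0.382 and 0.672), and lines of different pairs were. FTL was split likewise, with TCC-SUP at 1211 ± 249 and CLS-439 at 1184 ± 60.7 CPM above T24 at 871 ± 27.7 and 5637 at 708 ± 62.9 CPM. NFE2L2 was called higher in 5637 (119 CPM) and CLS-439 (114 CPM) than in T24 (80.0 CPM), and TCC-SUP (91.0 CPM) was not called apart from any line. Its F test lost the call without library 3 of every group (adjusted p = 0.151) and without library 4 (0.0885). SRXN1 averaged 2.18 CPM in CLS-439, against 0.946 to 1.04 CPM in the other lines, and its difference (adjusted p = 0.0489) is lost without the CLS-439 libraries (0.952), without library 3 of every group (0.213) and without library 4 (0.268).

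**Figure D4:**
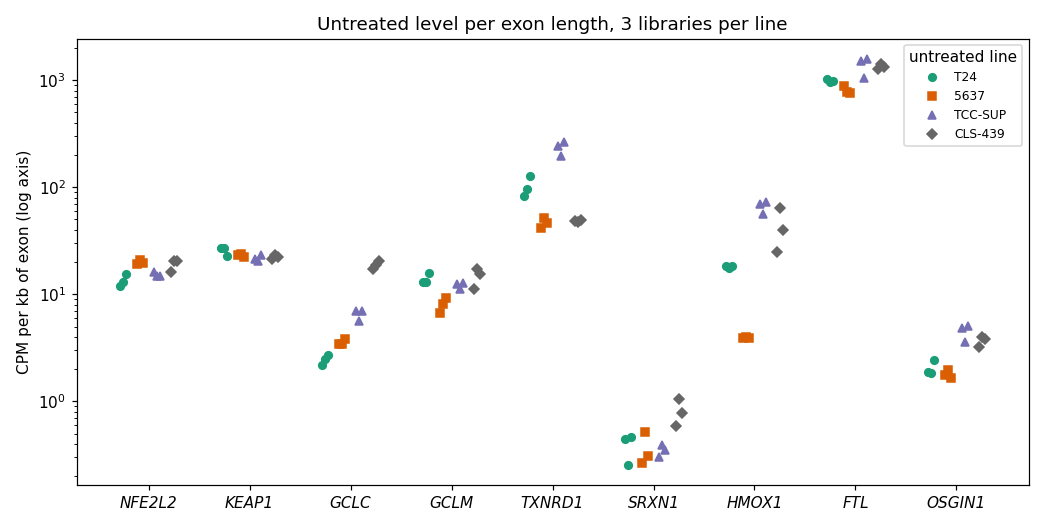
Untreated level in CPM per kilobase of exon (log axis) for each gene, with 3 libraries per line as symbols. FTL lies highest at line means of 807 to 1379 CPM per kb, and HMOX1 spreads most between lines. SRXN1 is drawn lowest, but its level is uncertain because most of its exon bases are shared with another gene.

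The genes whose pattern over the 8 group means was most like that of each member were found among 10307 genes averaging at least 10 CPM, by the smallest root mean square difference of centred log2 levels. WNT3 and SLC41A1 were nearest to OSGIN1 (0.18 and 0.21 on the log2 scale, where OSGIN1 itself spreads by 0.75). WNT3 had log2 fold changes of 1.38, 2.07, 1.07 and 0.58 in T24, 5637, TCC-SUP and CLS-439. UNC119B and PPP2R1B were nearest to KEAP1 (0.07 and 0.09), SDF2 and EPC2 to NFE2L2 (0.10 and 0.11), and FAM234B to GCLC (0.18). ARHGAP33 and RUBCN were nearest to GCLM (0.08 and 0.10), HTATIP2 and ZNF740 to FTL (0.09 and 0.10), and FBXO42 to SRXN1 (0.11). PXK and ARHGAP17 were nearest to TXNRD1 (0.24 each). SHISA4 and HCFC1R1 were nearest to HMOX1 at 0.44 and 0.45, the largest distances here, where HMOX1 itself spreads by 1.16. The spreads of NFE2L2 and TXNRD1 were 0.27 and 0.75, so these distances are not on a like scale. In TCC-SUP SHISA4 had a log2 fold change of 0.45, against -1.12 for HMOX1.

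The wider network was read from 63 other genes in 7 lists of NRF2 partners and antioxidant enzymes, all of which passed the filter. In T24, 12 rose, 5 fell and 46 were not called. The count was 16 rises and 7 falls in 5637, 3 rises and 11 falls in TCC-SUP, while CLS-439 had 2 rises and 0 falls. The shares of all genes tested that rose and fell were 15.2 and 13.4% for T24, 15.9 and 13.6% for 5637, 9.57 and 11.1% for TCC-SUP, and for CLS-439 0.298 and 0.322%.

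Small MAF genes, which encode the DNA-binding partners of NRF2, rose in T24, 5637 and TCC-SUP. Of 8 partners and regulators, 5 rose and 1 fell in T24, 5 rose in 5637 and 3 in TCC-SUP, and CLS-439 had 1 rise, with median log2 fold changes of 0.77, 0.53, 0.20 and 0.21 in that order. MAFF rose in all 4 lines: it averaged 165 ± 8.32 CPM with MMC and 38.5 ± 1.07 CPM untreated in T24 (log2 fold change 2.10, SE 0.20), and 160 ± 7.90 CPM with MMC and 60.0 ± 2.83 CPM untreated in 5637 (1.41, SE 0.20). In TCC-SUP it averaged 89.1 ± 23.1 CPM with MMC and 26.7 ± 7.70 CPM untreated (1.74, SE 0.20), and in CLS-439 26.4 ± 7.71 CPM with MMC and 13.9 ± 1.33 CPM untreated (0.93, SE 0.20, adjusted p = 0.0245). The libraries of MMC and untreated cells do not overlap in any of the 4 lines. The CLS-439 call of MAFF is lost without any 1 of 5 libraries, with adjusted p from 0.0819 (untreated library 3) to 0.29 (MMC library 3), and in between without untreated libraries 1 and 4 (0.134 and 0.152) and MMC library 4 (0.088).

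MAFG and MAFK also rose in T24, 5637 and TCC-SUP. MAFG averaged 211 ± 14.5 CPM with MMC and 107 ± 2.45 CPM untreated in 5637 (log2 fold change 0.98, SE 0.14). MAFK averaged 55.3 ± 6.41 CPM with MMC and 26.7 ± 3.41 CPM untreated in T24 (1.05, SE 0.20), and 121 ± 32.9 CPM with MMC and 56.7 ± 2.41 CPM untreated in TCC-SUP (1.09, SE 0.20). The MAFK call in TCC-SUP is lost without library 3 of every group (adjusted p = 0.056). CUL3, the ubiquitin ligase scaffold that KEAP1 works with, fell in T24, to 53.1 ± 18.6 CPM with MMC, against 91.9 ± 16.8 CPM untreated (-0.79, SE 0.19, adjusted p = 0.0027), and its adjusted p is 0.0989 when T24 is fitted alone. The other called partners were SQSTM1 and BACH1, higher in T24, and SQSTM1 and NFE2L1, higher in 5637.

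NADPH is the electron source of thioredoxin and glutathione reductases. Of 6 enzymes that supply it, TKT, ME1 and IDH1 fell in T24, 5637 and TCC-SUP, TALDO1 also fell in TCC-SUP, and none was called by edgeR in CLS-439 (1 at an unadjusted p under 0.05), with median log2 fold changes of -0.52, -0.63, -0.72 and -0.05. IDH1, the cytosolic isocitrate dehydrogenase, averaged 23.1 ± 7.87 CPM with MMC and 71.8 ± 2.33 CPM untreated in 5637 (-1.63, SE 0.22, adjusted p = 4.86e-06), and 43.0 ± 8.27 CPM with MMC and 83.5 ± 9.32 CPM untreated in T24 (-0.96, SE 0.21). ME1, the cytosolic malic enzyme, averaged 9.37 ± 2.74 CPM with MMC and 26.5 ± 2.11 CPM untreated in 5637 (-1.50, SE 0.20), 7.57 ± 1.65 CPM with MMC and 15.9 ± 3.42 CPM untreated in T24 (-1.07, SE 0.21), and 14.2 ± 2.04 CPM with MMC and 29.2 ± 4.91 CPM untreated in TCC-SUP (-1.04, SE 0.20). TKT, transketolase of the pentose phosphate pathway, averaged 376 ± 52.9 CPM with MMC and 848 ± 120 CPM untreated in TCC-SUP (-1.17, SE 0.18, adjusted p = 0.000106). For each of these pairs the MMC libraries lie under all untreated ones. Without library 4 of every group the calls of ME1 (adjusted p = 0.0869) and IDH1 (0.125) in T24 are lost. So are those of TKT (0.0529) and ME1 (0.0682) in TCC-SUP.

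Of 11 genes of quinone and carbonyl reduction, 5 fell in TCC-SUP (NQO1, AKR1B10, AKR1C2, AKR1C3 and PIR), 4 rose and 1 fell in 5637, 1 rose in T24 and 1 rose in CLS-439, with median log2 fold changes of -0.45 (TCC-SUP), 0.07 (5637), -0.30 (T24) and -0.10 (CLS-439). AKR1B10, an aldo-keto reductase, fell in TCC-SUP to 36.1 ± 6.91 CPM with MMC, against 146 ± 69.3 CPM untreated (-2.02, SE 0.37, adjusted p = 0.000629). PIR, pirin, an iron-binding nuclear protein, fell in 5637 to 8.66 ± 1.97 CPM with MMC, against 41.0 ± 4.72 CPM untreated (-2.24, SE 0.21, adjusted p = 4.62e-08), and in TCC-SUP to 21.0 ± 4.09 CPM with MMC, against 40.7 ± 11.1 CPM untreated (-0.96, SE 0.20). Without library 4 of every group the TCC-SUP calls of AKR1B10 (adjusted p = 0.122) and PIR (0.162) are lost. NQO1, the quinone reductase that can activate MMC, was named after its values were seen. Its log2 fold change was -0.66 in TCC-SUP (SE 0.13), and outside TCC-SUP the values were -0.30 in T24, -0.23 in 5637 and -0.19 in CLS-439, none of them called.

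In 5637, AKR1C1 averaged 29.4 ± 4.02 CPM with MMC and 9.10 ± 2.30 CPM untreated (log2 fold change 1.69, SE 0.21, adjusted p = 1.76e-06), and ALDH3A1 2.41 ± 0.353 CPM with MMC and 1.02 ± 0.178 CPM untreated (1.24, SE 0.33). The ALDH3A1 call is lost without library 3 of every group (adjusted p = 0.096) or library 4 (0.0926). EPHX1, the microsomal epoxide hydrolase, averaged 75.5 ± 3.82 CPM with MMC and 29.3 ± 5.07 CPM untreated in T24 (1.36, SE 0.15). AKR1C2 rose in CLS-439 at low levels, 1.50 ± 0.521 CPM with MMC and 0.372 ± 0.0507 CPM untreated (1.98, SE 0.37, adjusted p = 0.00865), a call lost without untreated library 1 (0.0552), untreated library 3 (0.074) or MMC library 4 (0.0628). AKR1C genes are near-identical copies of each other, so their counts are uncertain.

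Among 12 genes of glutathione synthesis and use, 3 rose in T24, 2 rose and 2 fell in 5637, and none was called by edgeR in TCC-SUP or CLS-439 (1 in each at an unadjusted p under 0.05), with medians of 0.22, 0.01, 0.01 and -0.10. CHAC1, an enzyme that degrades glutathione, averaged 58.3 ± 33.1 CPM with MMC and 5.22 ± 0.935 CPM untreated in T24 (log2 fold change 3.48, SE 0.33, adjusted p = 4.26e-08), and 36.6 ± 10.8 CPM with MMC and 5.16 ± 0.627 CPM untreated in 5637 (2.82, SE 0.32). SLC3A2 and SLC7A11 form the cystine importer. SLC3A2 averaged 959 ± 207 CPM with MMC and 433 ± 60.1 CPM untreated in T24 (1.15, SE 0.16). SLC7A11, by contrast, rose in T24 (1.06, SE 0.28) and fell in 5637, to 56.8 ± 6.52 CPM with MMC, against 114 ± 35.2 CPM untreated (adjusted p = 0.00889, or 0.0595 without untreated library 4). In 5637 MGST1 also fell (-0.53, SE 0.12), and GGT1 rose at a level near 1 CPM (1.26, SE 0.45, adjusted p = 0.035), a call lost without MMC libraries 1 and 3 or untreated libraries 3 and 4, each left out alone (0.0608 to 0.209). The MGST1 call is lost without library 3 of every group (adjusted p = 0.101) or library 4 (0.143).

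Of 11 thioredoxin and peroxiredoxin genes, TXNIP and SESN2 rose in T24 and 5637, PRDX6 fell in TCC-SUP and none was called by edgeR in CLS-439 (1 at an unadjusted p under 0.05), with medians of 0.06, -0.03, 0.07 and -0.04. TXNIP is an inhibitor of thioredoxin, and SESN2, sestrin 2, is a known p53 and stress-response target. TXNIP averaged 323 ± 59.6 CPM with MMC and 75.5 ± 3.17 CPM untreated in T24 (2.10, SE 0.20, adjusted p = 6.47e-08), and 181 ± 35.9 CPM with MMC and 114 ± 12.4 CPM untreated in 5637 (0.67, SE 0.20, adjusted p = 0.0115). The TXNIP call in 5637 is lost without MMC library 1 (0.0744) or untreated library 1 (0.0637). SESN2 averaged 75.4 ± 24.7 CPM with MMC and 17.2 ± 3.64 CPM untreated in T24 (2.13, SE 0.21), and 51.5 ± 5.30 CPM with MMC and 14.2 ± 1.78 CPM untreated in 5637 (1.86, SE 0.21). PRDX6 averaged 421 ± 24.4 CPM with MMC and 535 ± 29.4 CPM untreated in TCC-SUP (-0.35, SE 0.11, adjusted p = 0.0219), and its adjusted p is 0.0541 to 0.0959 without untreated library 1 or 4 or MMC library 3 or 4.

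Of 12 heme and iron genes, none was called by edgeR in T24, TCC-SUP or CLS-439 (3, 1 and 0 at an unadjusted p under 0.05) and 2 rose in 5637, with medians of 0.13, 0.06, 0.05 and 0.22 in that order of lines. SLC48A1, a heme transporter, averaged 11.5 ± 1.66 CPM with MMC and 5.57 ± 0.180 CPM untreated in 5637 (log2 fold change 1.05, SE 0.28, adjusted p = 0.00591). The 5637 call of SLC48A1 is lost without library 4 of every group (adjusted p = 0.0932). HMOX2, the constitutive heme oxygenase, averaged 93.4 ± 10.2 CPM with MMC and 72.5 ± 4.85 CPM untreated there (0.37, SE 0.13, adjusted p = 0.0425), and each of the 6 libraries of 5637 left out alone ends that call (0.0514 to 0.216). Of 3 genes that remove superoxide and peroxide, SOD2, the mitochondrial superoxide dismutase, rose in T24 and 5637. It averaged 312 ± 42.2 CPM with MMC and 97.2 ± 11.3 CPM untreated in 5637 (1.68, SE 0.16), and 148 ± 38.7 CPM with MMC and 43.0 ± 4.15 CPM untreated in T24 (1.78, SE 0.17). CAT, catalase, fell in 5637 to 30.1 ± 2.01 CPM with MMC, against 67.7 ± 0.898 CPM untreated (-1.17, SE 0.13), and in TCC-SUP to 61.0 ± 3.67 CPM with MMC, against 97.3 ± 12.1 CPM untreated (-0.67, SE 0.12). The TCC-SUP call of CAT is lost without library 4 of every group (adjusted p = 0.111). In T24 CAT averaged 67.9 ± 8.36 CPM with MMC and 88.8 ± 5.32 CPM untreated (-0.39, SE 0.12, adjusted p = 0.0209), a call lost without MMC library 4 (0.131) or untreated library 4 (0.0847).

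**Figure D5:**
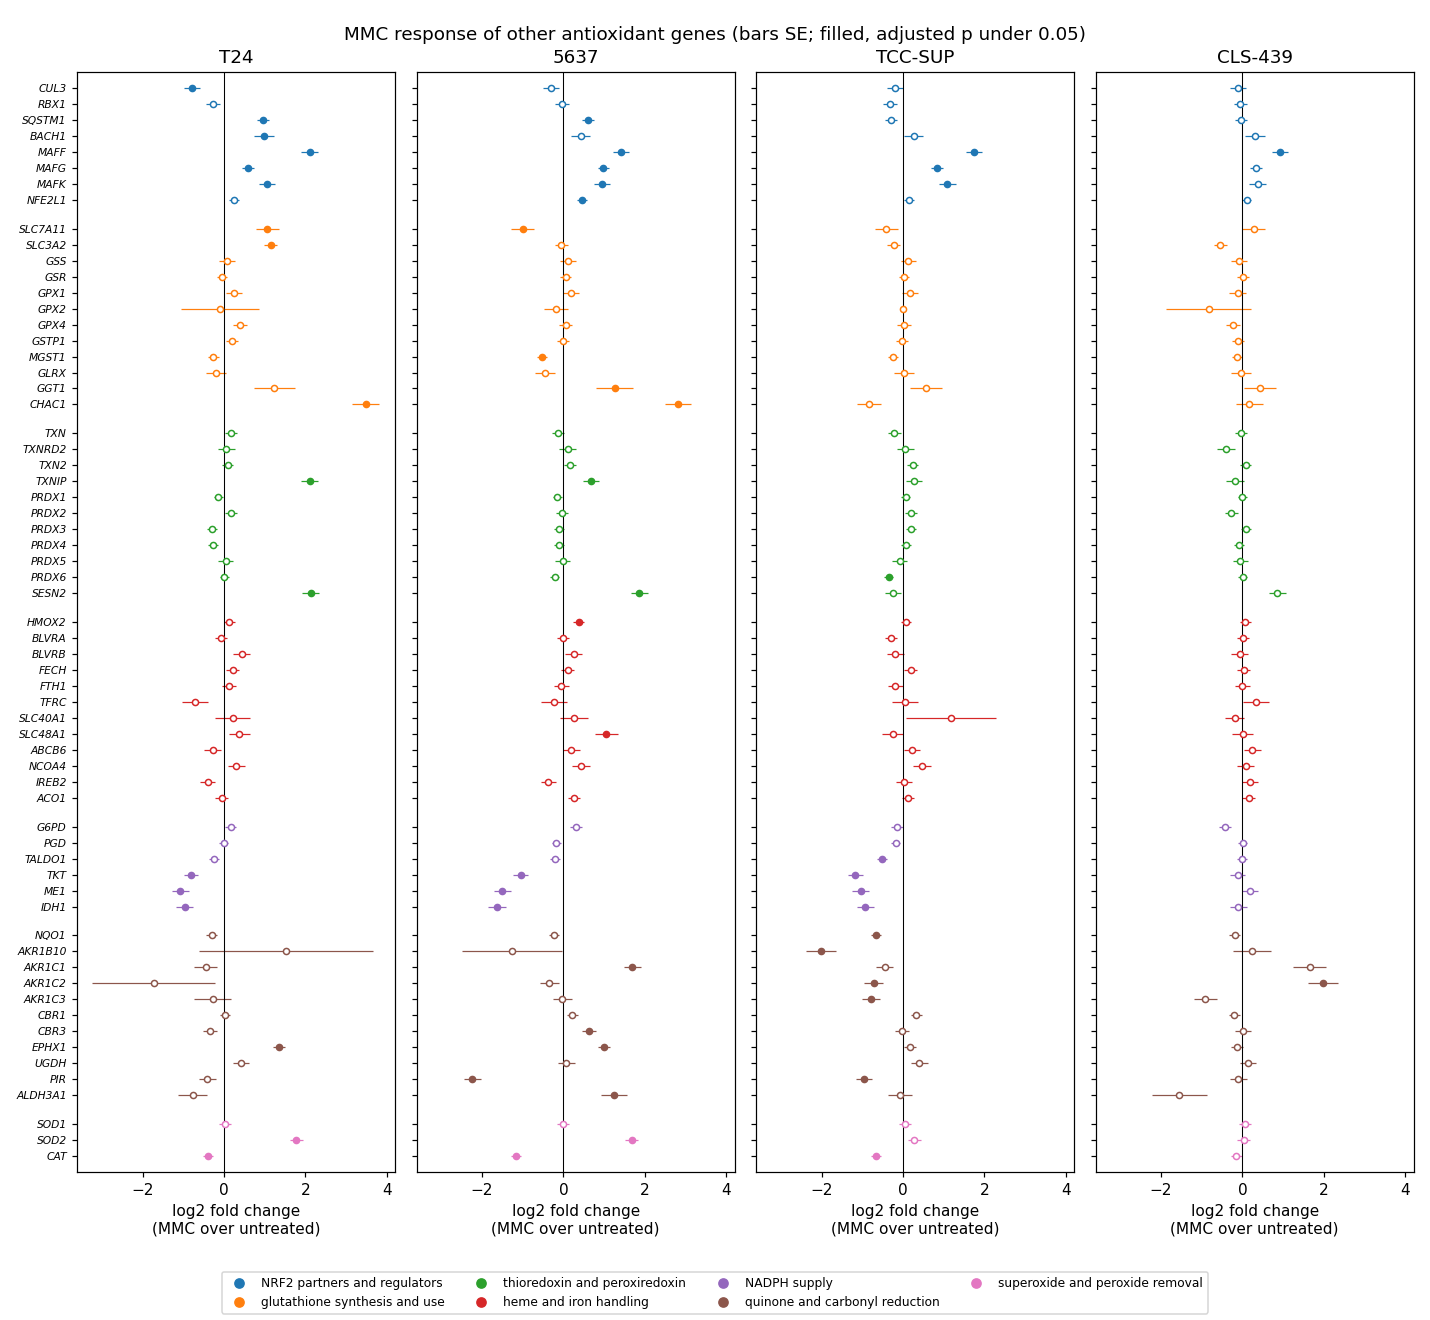
The MMC response of the 63 other genes in each line, as the log2 fold change of MMC over untreated on the x axis with its SE as a bar, coloured by list and filled where the adjusted p is under 0.05. TKT, ME1 and IDH1 are filled on the lower side in T24, 5637 and TCC-SUP, MAFF is filled on the higher side in all 4 lines, and 2 genes are filled in CLS-439. GPX2 in TCC-SUP, drawn at 0 with no bar, had 0 reads.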

How the data were processed

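Raw read counts per Ensembl gene for 24 libraries were deposited by the authors in 1 table, not normalized. Alignment with STAR 2.5.3a to GRCh38 and counting with featureCounts 1.6.2 are named in the submitters' processing notes, and the labels' protocols name a stranded mRNA kit and a DNase step. Not given in the sources used here are the annotation release, whether strand was used, and the handling of reads with several positions. Symbols, coordinates and merged exon lengths came from GENCODE release 29, which holds 58216 of the 58381 IDs. SOD2 has more than 1 ID there, and the one with the longer exons was used.

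Counts were tested in R 4.3.3 with edgeR 4.0.16: filterByExpr (20820 genes), TMM scaling, and a robust quasi-likelihood fit with 1 mean per group over all 24 libraries (16 residual degrees of freedom, common dispersion 0.0317). Adjusted p values are Benjamini-Hochberg values over all genes tested, called under 0.05. SE belong to log2 fold changes. CPM are counts per 1000000 reads after TMM scaling. The procedure was also run on data simulated with independent libraries, unlike the correlated treated libraries here, and no result above rests on that run. Alternatives were DESeq2 1.42.0, its size factors in edgeR, no filter, a replicate block, each line alone, no CLS-439 libraries, libraries left out, FTL summed with its pseudogenes, and an adjusted p under 0.01.

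Deviations of same-numbered MMC and untreated libraries from their group means correlated above 0.1 for each number in 5637 (0.41, 0.24 and 0.65), and likewise in CLS-439 (0.48, 0.45 and 0.19). In these lines numbers were taken as pairs. In T24 (0.52, -0.34 and 0.59) and TCC-SUP (0.06, -0.05 and -0.35) not every number correlated so, and numbers were not taken as pairs there. Same-numbered treated libraries correlated above 0.1 for each pair of T24, 5637 and TCC-SUP, untreated ones did not, and a block on the treated number was added as an alternative after the data were seen. No library repeated another of its group, since the chi-square per gene between them was at least 3.83. What separates the replicates is not stated beyond the word biological, so p values measure the spread between these libraries.

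Members and gene lists were chosen with earlier results of these data known. Named genes are all 9 members, the 2 called genes of each other list with the largest rise and the 2 with the largest fall in each line, and the 2 genes most like each member (log2 group mean CPM plus 0.5, centred over 8 groups). Of these most alike genes, 1 for GCLC and 1 for SRXN1 are not reported here. Called list genes beyond these are named to complete a count.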

Additional observations from a re-analysis of the deposited data

Results flagged for a closer look

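The responses of 3 of the 9 genes to MMC differed between lines by a test of the difference itself over all 4 lines. For HMOX1 the adjusted p was 6.99e-05, with a higher level in MMC-treated 5637 cells and a lower one in MMC-treated TCC-SUP cells than in untreated cells of the same line. For TXNRD1 it was 0.000337, with TCC-SUP below the other 3 lines. For OSGIN1 it was 0.0226, with log2 fold changes of 1.84 (T24), 2.07 (5637), 0.77 (TCC-SUP) and 0.55 (CLS-439). Without the CLS-439 libraries the OSGIN1 adjusted p is 0.134, while HMOX1 and TXNRD1 keep their calls. Without library 3 of every group that of OSGIN1 is 0.123. Without library 4 of every group none of the 3 is called, with adjusted p of 0.0866 (HMOX1), 0.0894 (TXNRD1) and 0.511 (OSGIN1). The part of the cell type markers and mitochondrial shares given above was not tested.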

How the results depend on the processing

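Of the 9 genes, OSGIN1 in T24 and 5637, HMOX1 and KEAP1 in 5637 and TXNRD1 in TCC-SUP kept their calls under every alternative run. NFE2L2 and GCLC in T24, FTL in 5637 and HMOX1 in TCC-SUP (0.137 without library 4 of every group) did not. The cause was not tested. SRXN1 had 673 reads in all, and its log2 fold changes had the widest SE of the 9 genes (0.45 to 0.53).

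With the replicate block, the members called were 4 (T24), 4 (5637), 3 (TCC-SUP) and 0 (CLS-439), against 3, 4, 2 and 0 without it. Where numbers were not taken as pairs, the block also calls HMOX1 in T24 (adjusted p = 0.00651) and KEAP1 in TCC-SUP (0.0467). In the paired lines it changed no call but those of TXNRD1 and FTL in 5637 given above. With the number shared by the treated libraries of T24, 5637 and TCC-SUP as a replicate block, chosen after seeing the data, 4 members were called in TCC-SUP, 462 genes in CLS-439, and 6429 genes differed in response.

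DESeq2 called 5 members in T24 and 263 genes in CLS-439, against 129 with edgeR. With no filter 332 genes were called in CLS-439. With each line fitted alone, 1 member and 3570 genes were called in T24, 4 members in TCC-SUP, and 1 member and 673 genes in CLS-439. Under an adjusted p of 0.01, 1 member was called in T24, genes called were 3707 (T24), 3878 (5637), 2261 (TCC-SUP) and 53 (CLS-439), and 1296 genes differed in response. Without the CLS-439 libraries 937 genes differed in response, against 3339.

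GCLM in TCC-SUP, at 0.00 on the log2 scale, changed sign with DESeq2 or its size factors (-0.005 each), no filter (-0.01), the replicate block (-0.009, or -0.01 over treated libraries) and no CLS-439 libraries (-0.016).

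With libraries left out, genes called ran from 1607 to 7192 (T24), 1904 to 7566 (5637), 275 to 6175 (TCC-SUP) and 3 to 304 (CLS-439). Leaving out TCC-SUP MMC library 3 alone gave 2216 genes there, and leaving out MMC library 3 or 4 or untreated library 1, 3 or 4 of CLS-439 gave 64, 36, 54, 55 and 54 genes there. Genes with differing response ran from 93 to 5080 and with differing untreated levels from 17427 to 19507. Members called ran from 1 to 4 (T24), 3 to 5 (5637), 1 to 3 (TCC-SUP) and 0 to 0 (CLS-439), from 0 to 3 for differing response and 6 to 8 for untreated levels. Values that were not called changed sign within their ranges: GCLM in T24 (-0.197 to 0.176) and TCC-SUP (-0.135 to 0.116), NFE2L2 in TCC-SUP (-0.156 to 0.064), and FTL in TCC-SUP (-0.107 to 0.366) and CLS-439 (-0.188 to 0.003). So did GCLC in CLS-439 (-0.003 to 0.157) and SRXN1 in 5637 (-0.059 to 0.872), TCC-SUP (-0.989 to 0.019) and CLS-439 (-0.402 to 0.248).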
